A study of Bos taurus with 47 samples.

Results

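The genes described are ACTB, GAPDH, EEF1A1 and B2M, which laboratories commonly use as internal references when they measure other transcripts. They were chosen by a list of 4 Ensembl identifiers out of 24616 in the deposited expression table. The rule uses no measured value, but earlier results of these data were known when the list was made. All 4 identifiers (ACTB ENSBTAG00000026199, GAPDH ENSBTAG00000014731, EEF1A1 ENSBTAG00000014534 and B2M ENSBTAG00000012330) were present and were above 1 FPKM in every library. FPKM counts fragments per kilobase of transcript and per 1000000 sequenced fragments. The table gives identifiers only, so the gene names are those of the list and could not be checked against the file. Positions on the UMD3.1 assembly were not examined.

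The series profiled Holstein cattle by RNA sequencing in 47 libraries with 15 tissue labels. A set of 10 tissues was taken from every one of 4 animals, male A, male B and 2 females. The female that gave the lactating mammary gland is called the lactating cow, and the other the dry cow. The shared set holds muscle, heart, frontal cortex, liver, kidney, spleen, lung, ileum, rumen and adipose tissue. The females also gave ovary, uterus and 1 lactating or dry gland, and a further male gave lymphocytes. The labels give no treatment, genotype or age, and each animal contributed 1 library per tissue, so the animal is the replicate.

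A reference gene serves in quantitative PCR as the denominator for a target transcript. Any change of the reference between 2 samples is carried, inverted, into the normalized target. GAPDH is a glycolytic enzyme, ACTB is the cytoplasmic beta-actin of the cytoskeleton, EEF1A1 delivers aminoacyl-tRNA to the ribosome, and B2M is the invariant light chain of MHC class I molecules at the cell surface. Striated muscle builds its contractile filaments from other actins, and skeletal muscle is rich in glycolytic enzymes. Muscle, heart and neurons also use a sister gene of EEF1A1, and MHC class I is abundant on lymphoid cells and scarce on neurons.

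The summed FPKM of a library lay between 576130 and 964931. Depth in fragments is unknown, and low values placed the relative depth between 0.795 and 1.40. Liver-restricted and rumen-restricted transcripts appeared at 61.0 to 1340 and 79.6 to 777 parts in 1000000 of their source level in 37 libraries, but at 0 to 33.3 and 0 to 6.51 in the other 10. The lactating cow accounts for 9 of those 10 and the lymphocytes for 1. Results that rest on them are given with and without them, except for within-tissue measures of spread, which are given with them only. Marker genes could not be looked up by name, so the tissue labels were not checked against markers.

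GAPDH was highest in muscle. It stood there at 15719 FPKM in male A, 15335 in male B, 17495 in the lactating cow and 18004 in the dry cow, and ranked 6 to 8 among all genes of these libraries. In heart it was 3914, 3345, 4027 and 4083 FPKM in the same order of animals, and in frontal cortex 2069.6, 1964, 2268 and 2757. These are the tissues at the top of its order, and none of the 3 ranges overlapped. At the other end, lung had 408, 360.1, 452 and 408 FPKM and spleen 481, 600.04, 509 and 554. In each of the 4 animals muscle was the highest and lung the lowest of the 10 shared tissues, with a ratio of 38.5 to 44.1. The lactating gland was lower still, at 113 FPKM.

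Muscle exceeded the mean of the other 14 labels by 4.32 ± 0.11 (SE) on the log2(FPKM + 1) scale, heart by 2.05 ± 0.11 and frontal cortex by 1.23 ± 0.11. Lung differed by -1.41 ± 0.11, spleen by -0.99 ± 0.11 and rumen by -0.68 ± 0.11. The limma adjusted p of these 6 contrasts was at most 1.435e-06, and all of them held under all 12 alternative settings. Their size depended on the scaling. In muscle the difference was 2.67 after quantile normalization and 5.41 after median-ratio scaling, in heart 1.37 and 2.61, and in frontal cortex 2.43 and 0.95. FPKM from bulk tissue cannot tell fewer cells of a type from less RNA per cell. Among the weaker GAPDH calls, the small excess in kidney (0.28 ± 0.11, adjusted p = 0.0222) turned to -0.05 after median-ratio scaling, which divides each library by its typical ratio to the others, and lost its call without any 1 of the 4 animals (adjusted p of 0.0940 or more).

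ACTB was highest in ileum, spleen and lung and lowest in muscle and heart among the shared tissues. Ileum had 4533, 4300.4, 5485 and 4259 FPKM in male A, male B, the lactating cow and the dry cow, spleen had 3725, 4690.5, 4283 and 4458, and lung had 3436, 3732, 4149 and 2875. The single lymphocyte library reached 4737 FPKM. Muscle had 279, 308, 238 and 247 FPKM and heart 698, 796, 413 and 369.6. Ileum, spleen and lung lay above every one of the other shared tissues without overlap, and heart and muscle lay below all of them.

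The ACTB difference from the other labels was 1.56 ± 0.16 (SE) in ileum, 1.44 ± 0.16 in spleen and 1.14 ± 0.16 in lung, against -2.84 ± 0.16 in muscle and -1.76 ± 0.16 in heart. These 5 calls (limma adjusted p at most 1.124e-07) held in every alternative, although after median-ratio scaling muscle came to -1.76, lung to 0.61 and heart to -1.20, and after quantile normalization spleen came to 0.75 and heart to -2.45. Liver (-0.78) and kidney (-0.53) were also called lower, but liver came to 0.00 after median-ratio scaling and kidney to -0.16 after quantile normalization, with adjusted p = 0.980 and 0.522. The call in frontal cortex (-0.36, adjusted p = 0.0410) turned to 0.65 after quantile normalization.

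EEF1A1 was the most abundant of the 4 on average, with a mean of 4102 FPKM over the 47 libraries, and ranked 3 among the genes with at least 1 FPKM in every library. The uterus reached 8875 FPKM in the lactating cow and 15573 in the dry cow, where it was the top gene of the library. The ovary had 4931 and 10732 FPKM in the same cows. Muscle had 309, 389, 371 and 304 FPKM, and heart 1144, 1874, 1232 and 941. Between these extremes, rumen, adipose tissue, spleen and ileum had means of 5780, 5230, 5172 and 5156 FPKM with overlapping ranges.

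Uterus exceeded the other labels by 1.90 ± 0.22 (SE) in EEF1A1, and muscle, heart and frontal cortex differed from them by -3.57 ± 0.16, -1.56 ± 0.16 and -1.48 ± 0.16. These calls (limma adjusted p at most 1.127e-08) held in every alternative that included the tissue, as did a smaller excess in adipose tissue (0.60 ± 0.16, adjusted p = 0.00188). After median-ratio scaling muscle came to -2.48, and after quantile normalization heart came to -2.70 and frontal cortex to -0.72. Ovary (1.15 ± 0.22) lost its call without the dry cow, with adjusted p = 0.0717, where its 1 remaining library is assumed to vary like the other tissues. Of the moderate calls, rumen (0.79) and spleen (0.62) turned to -0.33 and -0.27 after quantile normalization, and liver (-0.40) turned to 0.38 after median-ratio scaling. Ileum (0.59) came to 0.07 and spleen to 0.14 under that scaling, with adjusted p = 0.727 and 0.420.

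B2M was highest in spleen and ileum and lowest in frontal cortex. Spleen had 6908, 7002, 8856 and 8502 FPKM in male A, male B, the lactating cow and the dry cow, ileum had 3713, 6575, 11597 and 7895, lung had 3455, 4359, 5508 and 4267, and the lymphocyte library had 5961. In the ileum of both cows B2M was the most abundant gene of the library. Frontal cortex had 190.1, 186, 189 and 229 FPKM and lay below all other libraries of the series. Next from the bottom was muscle, with 363, 525, 503 and 367 FPKM.

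On the log2 scale B2M exceeded the other labels by 2.42 ± 0.17 (SE) in spleen, 2.23 ± 0.17 in ileum and 1.52 ± 0.17 in lung. It differed from them by -3.25 ± 0.17 in frontal cortex, -2.04 ± 0.17 in muscle, -1.39 ± 0.23 in uterus, -1.28 ± 0.17 in kidney and -0.65 ± 0.17 in adipose tissue. All 8 calls (limma adjusted p at most 0.00141) held in every alternative that included the tissue. Muscle came to -0.95 and lung to 0.99 after median-ratio scaling, and ileum to 2.95 and lung to 2.20 after quantile normalization. Heart, liver, rumen and ovary were not called, with differences between -0.35 and 0.27.

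**Figure D1:**
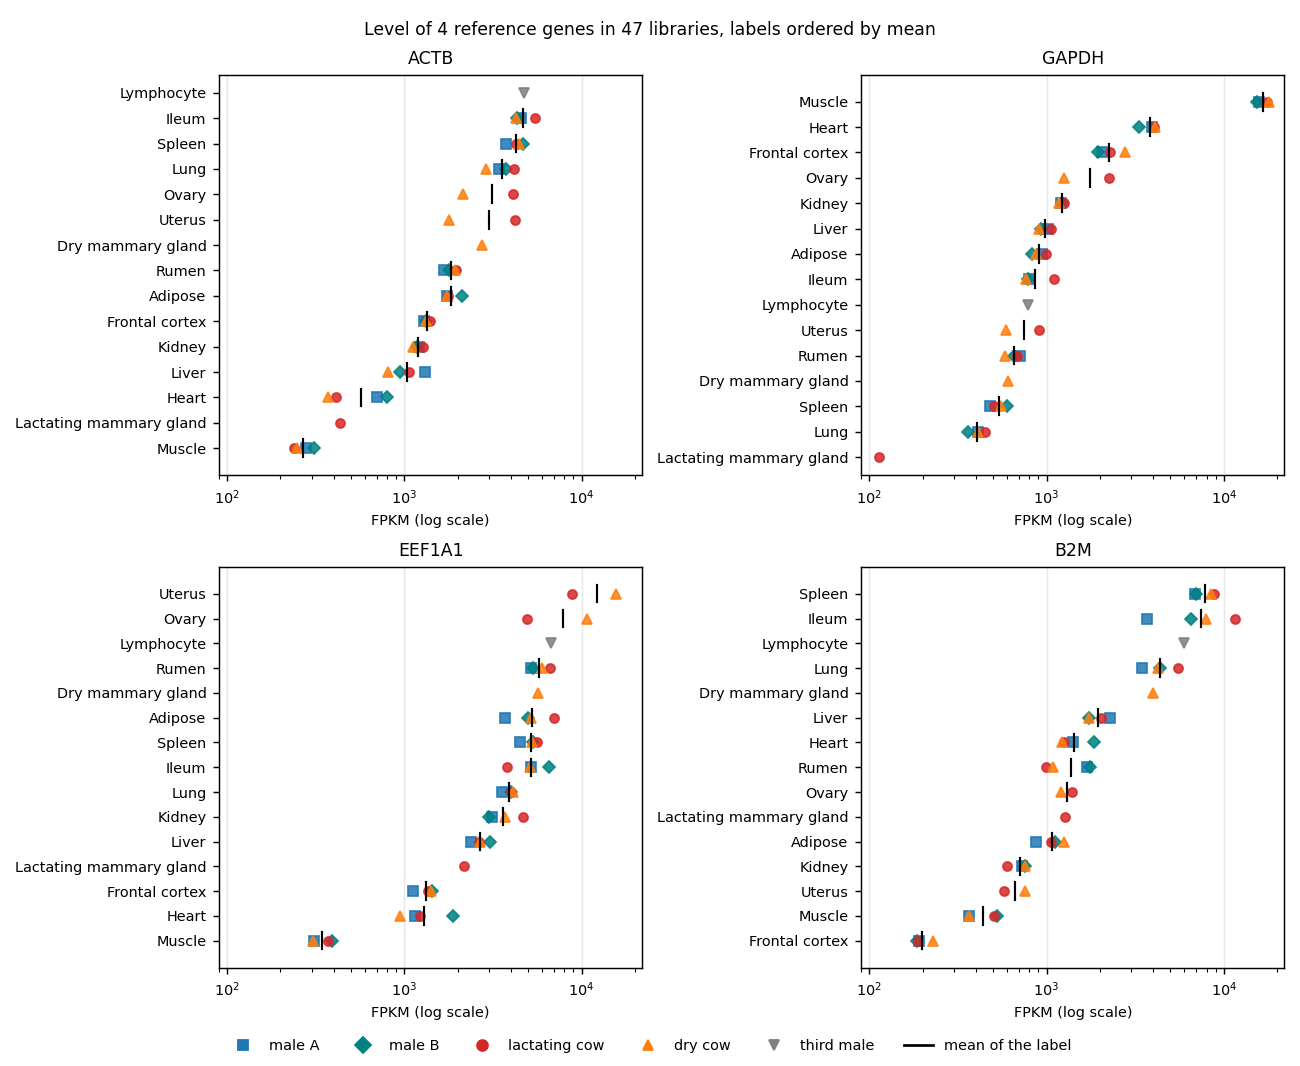
FPKM (log axis) of ACTB, GAPDH, EEF1A1 and B2M in each of the 47 libraries, 1 point per library marked by animal, with a bar at the mean of labels that have more than 1 library and the labels ordered by mean. GAPDH is highest in muscle (15335 to 18004), where ACTB (238 to 308) and EEF1A1 (304 to 389) are at their lowest among the shared tissues, and B2M runs from frontal cortex (186 to 229) to spleen and ileum.

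Over the 12 labels with more than 1 library, 10 contrasts were called for ACTB, 10 for GAPDH, 10 for EEF1A1 and 8 for B2M, which makes 38 of 48. Over all 16634 genes tested, 67.3% of such contrasts were called, so a call was common among genes at large too. The 4 genes had 19 calls higher and 19 lower, against 30.7% and 36.6% of all contrasts. With a difference of at least 2-fold also required, 21 of the 48 were called, against 25.5% of all contrasts. Of the 38 calls, 24 held their direction and threshold in every alternative that included the tissue. The matching share over all genes is not given here, so this count cannot be called high or low. A test of any difference among the 10 shared tissues called all 4 genes, as it did 99.4% of 16503 genes.

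**Figure D2:**
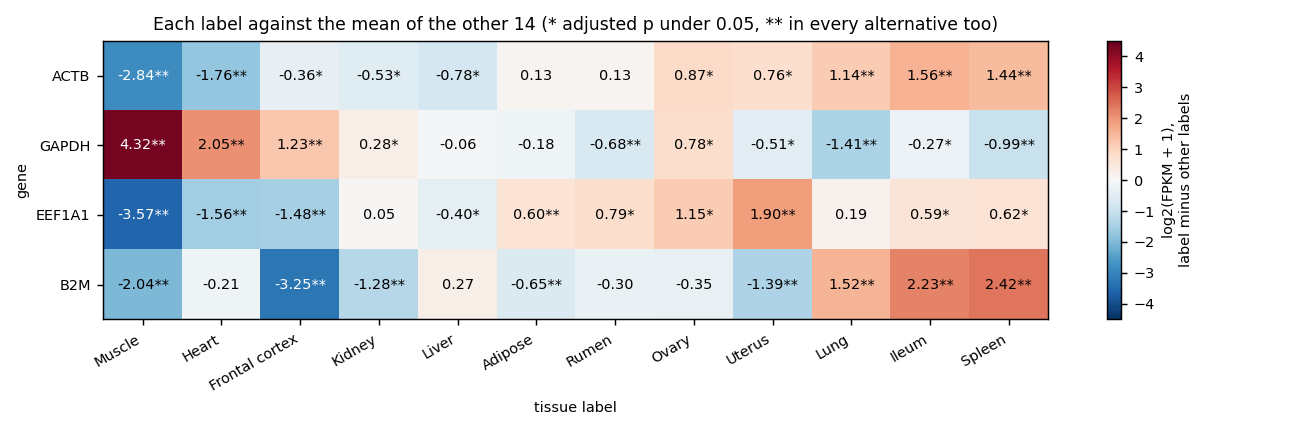
Difference of each label from the mean of the other 14 on the log2(FPKM + 1) scale, for the 4 genes in the 12 labels with at least 2 libraries. One star marks a limma adjusted p under 0.05 and a pair of stars a call that also held in every alternative setting. GAPDH (4.32) and the other genes (-2.84, -3.57 and -2.04) go opposite ways in muscle.

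The order of the 10 shared tissues was resolved to different degrees. Neighbours follow each gene's own means, and the matching share of called steps over all genes is not given here. For GAPDH, 7 of the 9 steps between neighbouring tissues in the order muscle, heart, frontal cortex, kidney, liver, adipose tissue, ileum, rumen, spleen and lung were called, and liver, adipose tissue and ileum were not told apart (adjusted p of 0.116 or more). For ACTB 4 of 9 steps were called, those from lung to rumen, adipose tissue to frontal cortex, liver to heart and heart to muscle. Rumen and adipose tissue, at 1837 and 1836 FPKM, were not told apart, and neither were ileum and spleen. For EEF1A1 the neighbours from rumen through adipose tissue, spleen, ileum and lung to kidney did not differ step by step (adjusted p of 0.0825 or more). Rumen did differ from lung (limma adjusted p = 0.00689) and from kidney (0.00127). Kidney also differed from spleen (0.0103), adipose tissue (0.0145) and ileum (0.0148). Kidney and liver differed at adjusted p = 0.0385, with overlapping ranges, and frontal cortex and heart could not be separated (0.743). For B2M, spleen and ileum were not told apart (adjusted p = 0.571). The neighbours from liver through heart and rumen to adipose tissue did not differ step by step (0.0859 or more). Liver did differ from rumen (limma adjusted p = 0.0365) and from adipose tissue (0.00099).

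Across the 47 libraries the coefficient of variation (CV, the SD as a percentage of the mean) was 70.4% for ACTB, 175% for GAPDH, 70.1% for EEF1A1 and 107% for B2M. The ratio of the highest to the lowest library was 23.1, 159, 51.2 and 62.4 in the same order. Over the 15 label means the CV was 66.7%, 191%, 65.4% and 97.0%. Among the 7310 genes with at least 1 FPKM in every library the median CV over label means was 55.4%, and 66.2%, 98.4%, 64.9% and 86.0% of these genes had a lower value than ACTB, GAPDH, EEF1A1 and B2M. Among the 834 of them with a mean of at least 100 FPKM, those shares were 48.8%, 92.8%, 47.2% and 65.6%. All 4 genes therefore varied more between labels than the median gene of the larger set, and ACTB and EEF1A1 lay near the middle of the abundant genes.

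Muscle carried much of the GAPDH figure. Without muscle its CV over libraries was 81.7% and its CV over label means 85.2%, in place of 175% and 191%. After quantile normalization, which gives every library the same distribution of values, they were 102% and 109%. The ACTB, EEF1A1 and B2M values over label means were 60.6%, 58.6% and 92.3% without muscle.

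Within a tissue the picture differed. The median CV over the 10 tissues with 4 animals was 8.68% for GAPDH, 11.0% for ACTB, 12.2% for EEF1A1 and 17.0% for B2M, against a median of 14.0% over the 7310 genes. Only 6.91% of these genes had a lower within-tissue CV than GAPDH, while 70.7% had a lower one than B2M. Among the 834 with a mean of at least 100 FPKM the median was 12.9%. Of these, 10.2%, 32.7%, 43.5% and 75.1% had a lower value than GAPDH, ACTB, EEF1A1 and B2M. GAPDH was steadiest in kidney, with 1214, 1229, 1253 and 1180.4 FPKM and a CV of 2.47%, and least steady in ileum (18.8%). The ileum value rests on the lactating cow, at 1105 FPKM against 763 to 795 in the other animals. That library is one of those that lack traces of other tissues. ACTB ranged from 3.05% in frontal cortex to 36.9% in heart, EEF1A1 from 6.43% in lung to 31.1% in heart, and B2M from 10.2% in frontal cortex to 44.0% in ileum. On the log2 scale tissue took 99.3% of the variance of GAPDH over the 40 libraries of the shared tissues, 97.4% of that of ACTB, 97.1% of that of B2M and 96.9% of that of EEF1A1, against a median of 93.0% over the 7310 genes. Over the 834 abundant genes that median was 95.3%. The animal took 0.180% to 0.865% in the reference genes.

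**Figure D3:**
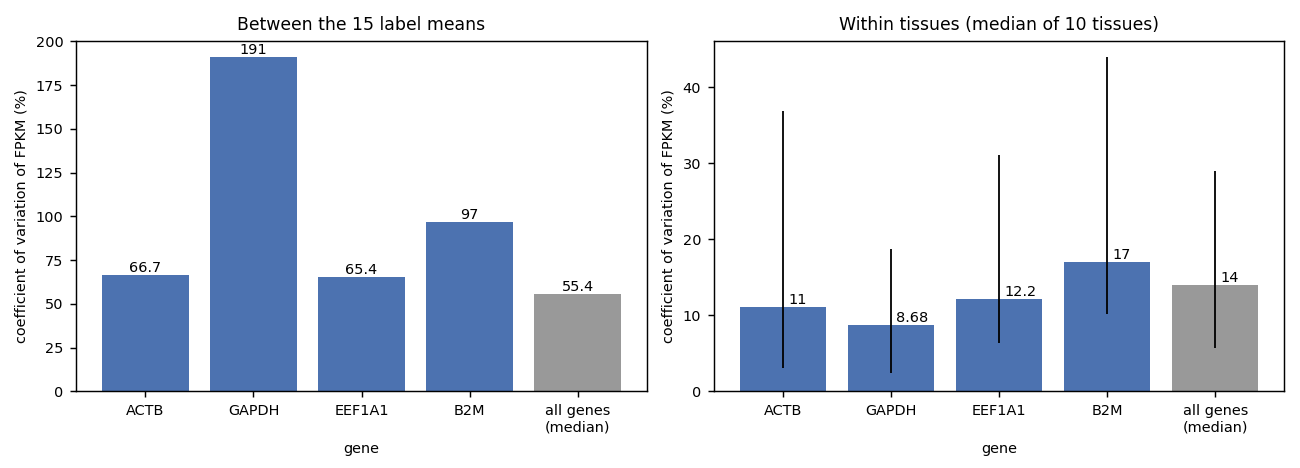
Coefficient of variation of FPKM over the 15 label means (left) and within tissues (right, median of 10 tissues with 4 animals each), in percent. The grey bar is the median over 7310 genes, and vertical lines on the right run from the lowest to the highest tissue (for all genes, from the median of the lowest to the median of the highest). GAPDH has the highest bar on the left (191) and the lowest on the right (8.68).

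For use as a denominator, what counts is how far a reference differs between the 2 tissues compared. Of the 45 pairs of shared tissues, ACTB differed in 40, GAPDH in 42, EEF1A1 in 34 and B2M in 40 (limma, adjusted p under 0.05), against 66.0% of all gene-by-pair tests. At least 2-fold differences were called in 29, 27, 24 and 33 pairs, or 113 of 180, against 38.5% of all tests. No pair of tissues was free of a call in all 4 genes, and in 27 pairs all 4 were called. In 6 pairs none of the 4 genes differed by 2-fold or more. These were lung and spleen, adipose tissue and rumen, ileum and spleen, adipose tissue and kidney, adipose tissue and liver, and kidney and rumen. That list is for FPKM as deposited. After median-ratio scaling B2M was 851 to 1088 FPKM in adipose tissue but 2736 to 3672 in liver. It was 503 to 642 FPKM in kidney but 1166 to 1867 in rumen. Both pairs were then more than 2-fold apart on average in B2M.

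The direction of the error also depended on the gene. In 43 of the 45 pairs at least 1 of the 4 genes was higher in one tissue while another was higher in the other. This holds whether or not the difference was called, and how often other sets of 4 genes do so is not given. Between lung and muscle the lung minus muscle difference was 3.72 for ACTB, 3.51 for EEF1A1 and 3.32 for B2M, but -5.35 for GAPDH. A transcript with the same FPKM in both tissues, divided by GAPDH, would thus come out 40.9-fold higher in lung than in muscle, and divided by any of the others it would come out lower in lung. Exchanging GAPDH for ACTB would change the lung to muscle ratio of any target 537-fold. In each pair of tissues the exchange between the 2 genes that differed most gave the widest change. It was 555-fold between muscle and spleen (GAPDH for B2M), 1.47-fold between lung and spleen (ACTB for B2M), and 13.9-fold at the median of the 45 pairs.

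Ratios between the genes within a library do not change when all its values are multiplied by a common factor. Quantile normalization can change them. The ACTB to GAPDH ratio was 0.0163 ± 0.00317 in muscle and 8.75 ± 1.39 in lung (SD, n = 4 each), and GAPDH to EEF1A1 ran from 0.0379 in a uterus library to 59.2 in a muscle library. ACTB and EEF1A1 were the closest pair. The SD of their log2 ratio over the 47 libraries was 0.81, against 1.25 for ACTB with B2M, 1.47 for EEF1A1 with B2M and 2.58 to 2.76 for the pairs with GAPDH. Averaged over the 3 partners of a gene, this SD is the M value of the geNorm procedure for ranking reference genes. A low M means close agreement with the partners, which genes that vary together also reach. M was 1.55 for ACTB, 1.66 for EEF1A1, 1.83 for B2M and 2.68 for GAPDH. Without muscle the values were 1.29, 1.34, 1.67 and 1.92. Within single tissues M was far smaller, with medians of 0.26 for ACTB, 0.25 for GAPDH, 0.31 for EEF1A1 and 0.26 for B2M. The lowest within-tissue values came from spleen for ACTB (0.12), GAPDH (0.14) and EEF1A1 (0.12) and from frontal cortex for B2M (0.15), and the highest from heart for ACTB (0.45) and GAPDH (0.54) and from ileum for EEF1A1 (0.65) and B2M (0.69).

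**Figure D4:**
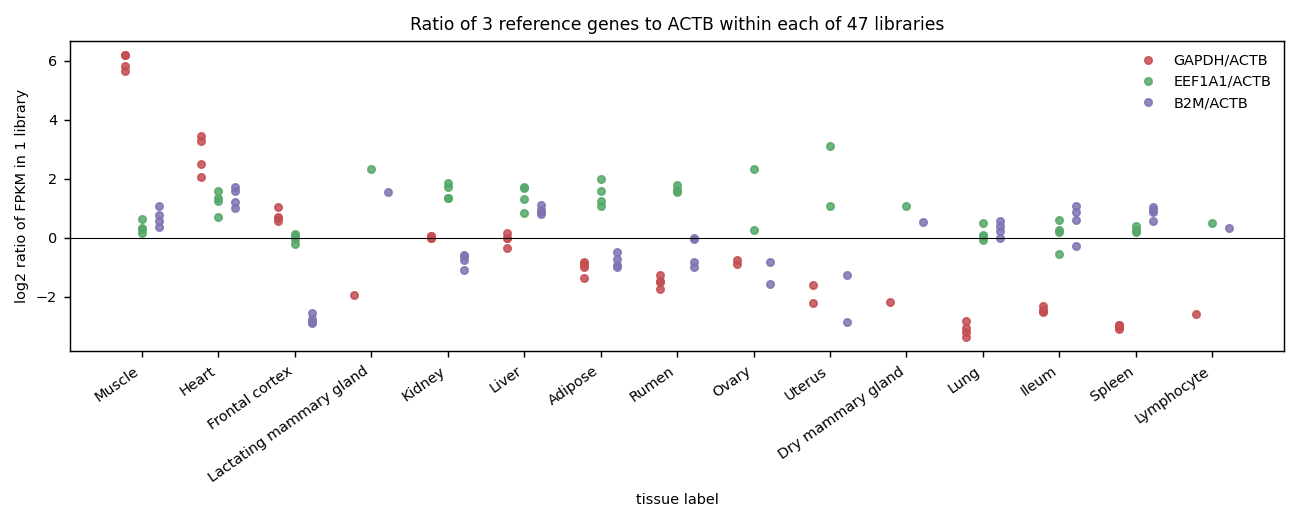
Log2 ratio of GAPDH, EEF1A1 and B2M to ACTB inside each of the 47 libraries (1 point per library), by tissue label. GAPDH/ACTB lies above 5 in muscle and below -2 in lung, ileum and spleen, and the SD of EEF1A1/ACTB over the libraries is 0.81.

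Over the 15 label means the log2 level of ACTB went with that of EEF1A1 (Pearson r 0.83, Spearman rho 0.71) and of B2M (0.62 and 0.65), and GAPDH ran against all of them (r of -0.41 with ACTB, -0.62 with EEF1A1 and -0.47 with B2M). These are descriptions over 15 labels, which share animals and the scaling of their libraries, and muscle is an extreme point for 3 of the genes. Geometric means of several genes averaged some of this out. On FPKM as deposited, GAPDH with EEF1A1 had the lowest CV over libraries of the 11 combinations, 27.7%, and all 4 genes together had 44.8%. After median-ratio scaling the lowest value was 23.7%, for ACTB, GAPDH and EEF1A1 together, while GAPDH with EEF1A1 had 49.8% and all 4 had 30.5%. The steadiest combination was therefore not the same under the 2 scalings, and both are descriptions of these libraries.

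**Figure D5:**
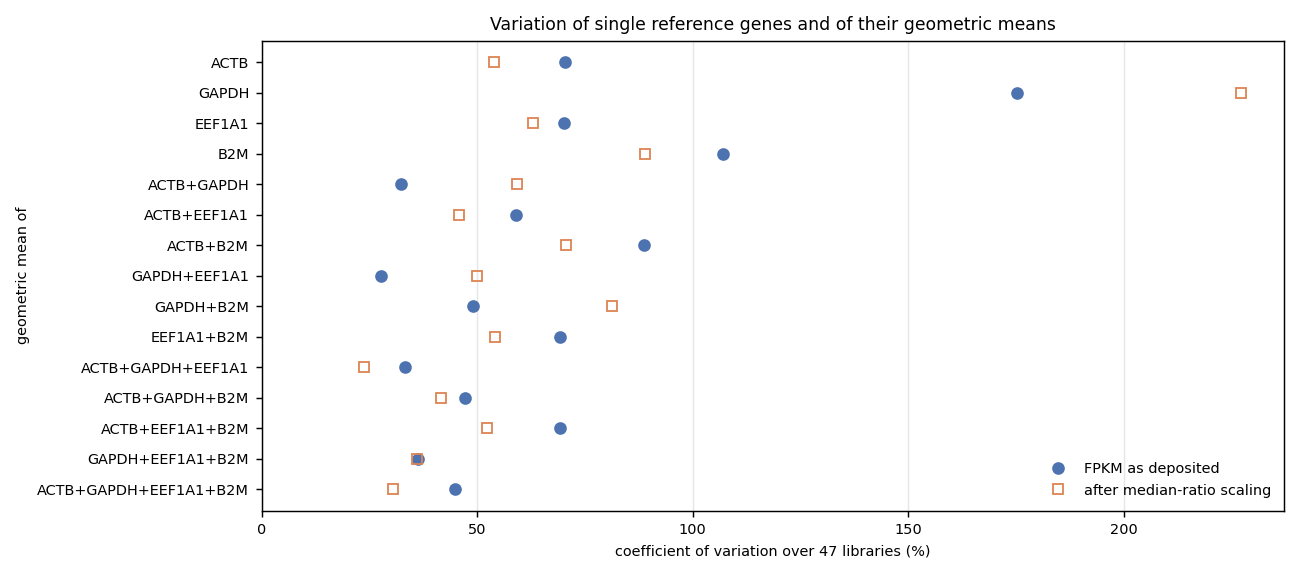
Coefficient of variation over 47 libraries, in percent, of each gene and of the geometric mean of each combination of 2, 3 or 4 genes, on FPKM as deposited (filled circles) and after median-ratio scaling (open squares). GAPDH alone is the most variable under both (175 and 227), and GAPDH with EEF1A1 moves from 27.7 to 49.8.

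Differences between the sexes inside a tissue were few. Of 40 contrasts (4 genes in 10 tissues, 2 males against 2 females), 2 were called by limma, against 4.52% of all gene-by-tissue contrasts. GAPDH and EEF1A1 had 0 calls, with 0 and 1 of 10 contrasts at an unadjusted p under 0.05. ACTB in heart was 698 and 796 FPKM in the males and 413 and 369.6 in the females, a difference of 0.93 ± 0.18 (SE) with adjusted p = 0.00626, in a tissue where 3.31% of all genes were called. The call was lost after median-ratio scaling (adjusted p = 0.124), after quantile normalization (0.266), without male B (0.344) and without the dry cow (0.0898). B2M in ileum was 3713 and 6575 FPKM in the males and 11597 and 7895 in the females, a difference of -0.95 ± 0.24 with adjusted p = 0.00551, in a tissue where 24.3% of all genes were called. This call was lost without male A (-0.54, 0.274) and without the lactating cow (-0.68, 0.261). The ileum library of the lactating cow is also one of the 10 that lack traces of other tissues, and without those libraries the adjusted p was 0.229. In rumen B2M stood at 1687 and 1758 FPKM in the males and 988 and 1083 in the females, without overlap, but was not called (adjusted p = 0.270). The sex differences of ACTB in heart and B2M in ileum also departed from the mean of the other 9 tissues, which 3.73% of all such tests did, while that of B2M in rumen did not pass this test (adjusted p = 0.297). That pooled share hides a wide range between tissues. Of 16503 genes, 18 departed upward and 7 downward in heart, but 2062 and 1610 in ileum. With 2 animals per sex, sex cannot be told apart from the individual animals.

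In uterus ACTB was 4222 FPKM in the lactating cow and 1784 in the dry cow, while EEF1A1 was 8875 and 15573. In ovary ACTB was 4112 and 2132 FPKM and EEF1A1 4931 and 10732. In both organs ACTB was thus higher in the lactating cow and EEF1A1 higher in the dry cow. Both libraries of the lactating cow are among the 10 that lack traces. The ACTB call in uterus (0.76) was 0.29 without the 10 libraries and 0.03 without the lactating cow, with adjusted p = 0.347 and 0.941, and that in ovary (0.87) was 0.57 and 0.30, with adjusted p = 0.0554 and 0.349. The GAPDH difference in ovary (0.78) was 0.37 without the 10 libraries (adjusted p = 0.0441), 0.40 after median-ratio scaling (0.0859) and 0.17 without the lactating cow (0.414), and the EEF1A1 difference in ovary (1.15) was 1.78 without the 10 libraries (7.809e-07). The ACTB calls in ovary and uterus were also lost after median-ratio scaling (0.50 and 0.45) and after quantile normalization (0.64 and 0.13), with adjusted p of 0.0658 or more. Without 1 cow, ovary and uterus hold a single library each, and the test assumes that it varies like the other tissues.

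In the mammary gland all 4 genes had lower FPKM in the lactating than in the dry library. ACTB was 431 against 2734 FPKM, GAPDH 113 against 609.7, EEF1A1 2175 against 5707 and B2M 1275 against 3967, or log2 ratios of -2.66, -2.43, -1.39 and -1.64. The lactating library held 75.6% of its FPKM in 10 genes, and 76.8% of 13002 genes were at least 2-fold lower there, with a median log2 ratio of -1.50. Relative to that median, ACTB and GAPDH were lower still and EEF1A1 and B2M close to it. After median-ratio scaling the ratios were -0.75 and -0.51 for ACTB and GAPDH, but 0.53 and 0.28 for EEF1A1 and B2M, whose direction turned. In the 12 other tissues of the same 2 cows the log2 ratio lay between -0.06 and 1.24 for ACTB and between -1.12 and 0.44 for EEF1A1. There is 1 library per state, so no test was made, and state and cow cannot be told apart.

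For each reference gene, the gene with the most similar profile over the 15 label means was found among 7840 genes with a mean of at least 10 FPKM. For EEF1A1 it was ENSBTAG00000034185, with a Pearson r of 0.999. That gene stood at 5.26% to 7.36% of the EEF1A1 level in every one of the 47 libraries, and the SD of their log2 ratio was 0.12. It was 707.8 FPKM in uterus and 22.2 in muscle. For B2M the closest was ENSBTAG00000002069 (r = 0.974), for ACTB ENSBTAG00000016081 (r = 0.963) and for GAPDH ENSBTAG00000019782 (r = 0.956), and their log2 ratios to the reference gene had SDs of 0.60, 0.59 and 0.52. The number of genes with r of at least 0.9 was 212 for ACTB, 46 for B2M, 18 for EEF1A1 and 7 for GAPDH. The file does not pair these identifiers with names. Mammalian genomes carry many processed copies of the ACTB, GAPDH and EEF1A1 messenger RNAs. The sources used here do not say how fragments that match several copies were assigned, so the absolute levels of these 3 genes are uncertain to that extent.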

How the data were processed

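Total RNA was purified with Trizol, DNase and RNeasy columns and sequenced from TruSeq libraries as paired reads of 150 bases, per the labels' protocols. Trimmomatic 0.39, STAR, Cufflinks and the UMD3.1 build are listed by the submitters' processing notes without order, settings or annotation. The authors deposited 1 table of FPKM with 51 columns. Of these, 47 matched a sample by name (1 muscle column has an extra letter in its tissue code) and 4 matched none and were not used. The 5 animals and 15 tissues follow the sample labels, although the series text counts 4 and 14. Total counts are unknown, so no counting intervals were computed. Relative depth was taken from the commonest ratio of values under 0.2 FPKM between libraries.

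Values were analysed as log2(FPKM + 1), which understates changes of low genes, with limma 3.58.1 in R 4.3.3 (trended variances, Benjamini-Hochberg adjustment over all genes of a contrast, threshold 0.05, after dropping genes that reached 1 FPKM in fewer than 2 libraries). Each label with at least 2 libraries was set against the other 14 labels, weighted equally, in a fit of 47 libraries. Pairs of tissues and the sexes were compared over the 40 libraries of the 10 shared tissues. P-values and SEs rest on the spread between libraries of the same label, pooled over all labels of the fit. They do not follow the spread between animals in a single tissue. The main fits held no animal term and treated libraries of the same animal as independent. In simulated data with 16634 genes, 89 of 100 genes changed by 1 on the log2 scale and 100 of 100 changed by 2 were recovered in the comparison of a label with the others, with 14 false calls. For pairs of tissues (16503 genes) 83 and 99 of 100 were recovered, with 15 false calls. The simulation drew independent normal errors with each gene's own SD. Label means were equal except for the changed genes in lung. It therefore could not show how the test behaves with shared animals or with unequal spread between tissues. Libraries carry animal numbers, and same-numbered libraries come from the same animal. Their deviations from the tissue means had a median correlation of 0.182 over 180 pairs, against -0.063 between animals. Deviations of the animals in a tissue cancel by construction. The value between animals therefore largely follows from the value within animals and is no separate baseline.

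Alternatives were a pseudocount of 0.1, no filter on low values, rescaling to the same summed FPKM, median-ratio scaling (11515 genes above 0 in all libraries), quantile normalization, the animal as a replicate block, the 10 shared tissues alone, each animal left out, and the 10 libraries lacking traces left out (under 50 parts in 1000000 of genes with at least 2000 FPKM in liver or rumen and 100 times every other label). The fit with the animal as a block also left out the lymphocyte library. Leaving out muscle was added after seeing the data. The members and lists were chosen with earlier results of these data known. The 4 members are described throughout, with the closest gene to each. Lists of other reference genes, their pathways and tissue markers had been set by symbol. The reference table, from assembly ARS-UCD2.0, holds 0 Ensembl identifiers, so these lists could not be applied. No genome was used, and no sequences are shown. Summaries and plots used matplotlib 3.10.9, pandas 2.3.3, numpy 2.4.6 and Python 3.11.15.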

Additional observations from a re-analysis of the deposited data

Results flagged for a closer look

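Among 40 groups of 4 libraries (4 genes in 10 tissues), 3 held a library far from the other 3 by Dixon's criterion, and chance alone flags about 1 in 20 groups. ACTB in adipose tissue was 2116 FPKM in male B, against 1734 to 1759 in the others. GAPDH in ileum was 1105 FPKM in the lactating cow, against 763 to 795. B2M in frontal cortex was 229 FPKM in the dry cow, against 186 to 190.1. The ileum library of the lactating cow is one of the 10 that lack traces of liver and rumen transcripts.

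A difference between the sexes departed from that of the other 9 tissues in 2 of 40 tests (limma), against 3.73% of all such tests. By tissue the share was unequal. Of 16503 genes, 18 departed upward and 7 downward in heart, but 2062 and 1610 in ileum. For ACTB in heart the male minus female difference exceeded the mean of the other tissues by 0.90 ± 0.19 (SE, log2), with adjusted p = 0.0484. For B2M in ileum it differed from them by -0.99 ± 0.26, with adjusted p = 0.00678.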

How the results depend on the processing

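Of 568 re-computed tissue contrasts of the 4 genes, 488 kept their direction and their side of the threshold, 34 lost and 27 gained a call, and 19 changed direction. The changes of direction, on the log2 scale, were these. After median-ratio scaling ACTB in adipose tissue came to -0.036, GAPDH in kidney to -0.050 and in liver to 0.72, EEF1A1 in kidney to -0.28, in liver to 0.38 and in lung to -0.34, and B2M in heart to 0.35. After quantile normalization ACTB came to 0.65 in frontal cortex and -0.58 in rumen, and EEF1A1 to -0.33 in rumen and -0.27 in spleen. With the same summed FPKM ACTB in rumen came to -0.10, and GAPDH to 0.051 in adipose tissue and 0.050 in liver. With only the 10 tissues GAPDH in kidney came to -0.15 and EEF1A1 in liver to 0.019. Without the 10 libraries lacking traces EEF1A1 in kidney came to -0.069 and B2M in heart to 0.010, and EEF1A1 in kidney ranged over -0.19 to 0.17 with 1 animal left out at a time. Scaling moved the median difference of all genes in a contrast by -0.48 to 0.60 (quantile), -0.39 to 0.54 (median-ratio) and -0.20 to 0.24 (same sum), and the report gives unscaled FPKM. With the animal as a replicate block, 9, 10, 9 and 9 of the 12 contrasts with other labels were called for ACTB, GAPDH, EEF1A1 and B2M, and 40, 42, 36 and 40 of the 45 pairs. That setting also left out the lymphocyte library, so the mean of the other labels changed with it. Under it ACTB in frontal cortex (-0.26, limma adjusted p = 0.0939) and EEF1A1 in liver (-0.32, 0.0591) lost their calls. B2M in liver gained a call (0.43, 0.0193). For the contrasts with other labels, the effect of the block was not separated from that of the missing library. The pairs of tissues never held that library, so EEF1A1 went from 34 to 36 called pairs with the block alone.

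The CV over libraries of ACTB, GAPDH, EEF1A1 and B2M was 54.0%, 227%, 63.0% and 88.8% after median-ratio scaling and 80.0%, 102%, 77.1% and 133% after quantile normalization. With the same summed FPKM it was 65.9% for EEF1A1. With only the 10 tissues it was 169% for GAPDH and 56.9% for EEF1A1, without the lactating gland and lymphocytes 172% for GAPDH, and without the 10 libraries 76.4% for EEF1A1. Without muscle it was 62.9%, 81.7% and 61.8% for ACTB, GAPDH and EEF1A1. Over label means it was 47.9%, 256%, 56.2% and 76.0% after median-ratio scaling, and 109% for GAPDH and 114% for B2M after quantile normalization. With only the 10 tissues it was 75.6%, 175% and 56.4% for ACTB, GAPDH and EEF1A1, without the 10 libraries 194% and 83.1% for GAPDH and EEF1A1, without the lactating gland and lymphocytes 181% for GAPDH, and without muscle 60.6%, 85.2% and 58.6% for ACTB, GAPDH and EEF1A1. Leaving out 1 animal at a time gave 172% to 179% for GAPDH and 58.5% to 73.8% for EEF1A1 over libraries, and 181% to 192% and 57.5% to 77.2% over label means. Without muscle M was 1.29, 1.92 and 1.34 for ACTB, GAPDH and EEF1A1. The causes were not tested.

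Sex calls of ACTB came to 0 after median-ratio scaling and after quantile normalization, and those of B2M to 0 without the 10 libraries. With 1 animal left out, where the lone animal of a sex is assumed to vary like the rest, they ranged over 0 to 1 for ACTB, 0 to 1 for GAPDH and 0 to 1 for B2M. For the lactating minus dry gland, the log2 ratios of ACTB, GAPDH, EEF1A1 and B2M were -0.75, -0.51, 0.53 and 0.28 after median-ratio scaling and -1.21, -1.05, -0.59 and -0.74 after quantile normalization. With the same summed FPKM they were -3.12, -2.89 and -2.09 for ACTB, GAPDH and B2M. Depth in fragments is unknown, so sampling error could not be separated from differences between animals.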
